A study of Mus musculus with 12 samples.

Results

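Oxidative phosphorylation genes were followed in mouse cerebral cortex taken at embryonic day 15.5, across 6 Emx1-Cre Arid1a conditional mutants and 6 controls. The 40 genes, found by symbol among the 51912 genes of the count files, are the 13 protein-coding genes of the mitochondrial genome and 27 nuclear genes that encode subunits of the same respiratory complexes. Of these, 33 had at least 1 count (7 mitochondrial and 26 nuclear), 7 were listed at 0 in every library, and 32 passed the filter on low counts and were tested. Litter 1 gave mutants 1 and 2, both female, and controls 1 (female) and 2, 3 and 4 (male). Litter 2 gave mutants 3, 5 and 6 (female) and 4 (male), and controls 5 (male) and 6 (female). The labels put all 12 libraries in batch 1. Emx1-Cre acts in the progenitors of the dorsal telencephalon, so blood vessels, microglia, interneurons and other cells from outside that lineage keep Arid1a. That gene encodes a subunit through which BAF, a chromatin remodelling complex driven by ATP, binds DNA. The labels do not give the genotype of the controls beyond that word.

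The respiratory chain moves electrons from NADH and succinate to oxygen through complexes I to IV and pumps protons across the inner mitochondrial membrane, and complex V uses the returning protons to make ATP. Complexes I, III, IV and V are built from subunits of both genomes, while complex II is nuclear only. The mitochondrial genome is transcribed as long precursors that are cut into single transcripts, mostly at transfer RNAs. Every protein that transcribes, processes and translates them is imported from the cytosol, while the ribosomal and transfer RNAs come from the mitochondrial genome. Neural progenitors lean on glycolysis and neurons on oxidative phosphorylation. In bulk tissue, fewer cells of a type and less RNA per cell cannot be told apart.

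Libraries held 643197 to 3525121 counts on genes, with 15193 to 17868 genes detected. Arid1a stood at 396 to 525 CPM in the mutants, where CPM is a count per 1e+06 counts of the library after scaling by the trimmed mean of M values, and between 464 and 575 CPM in the controls. The log2 fold change of mutants against controls was -0.30 there (SE 0.0958, adjusted p = 0.277, edgeR quasi-likelihood test). The part of the gene that was deleted is not given in the labels, so counts over the whole gene are a weak check of genotype. The 7 markers of cortical excitatory neurons were all measured and summed to 2002 to 3823 CPM per library, the tissue the labels name. Markers of striatum summed to 1316 to 3657 CPM and of interneurons to 261 to 1205 CPM over the libraries. Genotype log2 fold changes were positive for 7 of 7 tested interneuron, 3 of 3 striatal and 1 of 7 cortical excitatory markers, with 0 called. Over all genes tested, 5325 of 10678 were positive. The part of such a lean in the genotype values below was not tested.

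Of the 13 mitochondrial genes, 6 had no counts. Listed at 0 in every library were mt-Nd3 and mt-Nd4l of complex I, mt-Co2 and mt-Co3 of complex IV, and mt-Atp6 and mt-Atp8 of complex V. With 0 counts, counting error alone allows a level of up to 0.851 to 4.66 CPM (3 counts), depending on the library and before scaling. That limit holds only where reads of the gene can be counted, so it does not bound genes with a near-identical copy. For 5 of these 6 genes, annotated pseudogenes on the minus strand of chromosome 1 (GRCm38) held a near-identical copy of all but 1 to 3 bases of the gene. Gm28661 at chr1:24614885-24615565 matched mt-Co2 over 681 bases with 100% identity, Gm28437 at chr1:24613189-24613971 matched mt-Co3 over 783 bases with 100%, and Gm10925 at chr1:24613974-24614651 matched mt-Atp6 over 678 bases with 100%. Gm10222 at chr1:24612407-24612700 matched mt-Nd4l over 294 bases with 100%, and Gm28438 at chr1:24612775-24613119 matched mt-Nd3 over 345 bases with 1 mismatch. Over all 12 libraries Gm28438 had 1 count and the other 4 copies had 0. A read that fits a gene and its copy equally well is not unique, and alignments that were not unique took 13.6 to 23.0% of a file's total. The zeros of these 5 genes therefore say nothing of whether they were transcribed.

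The 5′ end of mt-Nd3 (chrM:9459-9491, plus strand) and the same stretch of Gm28438 (chr1:24613087-24613119, minus strand) are shown because they hold the only base by which that pair differed, T3C counted from 1 at the first base of mt-Nd3, in capitals.
mt-Nd3: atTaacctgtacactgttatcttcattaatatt
Gm28438: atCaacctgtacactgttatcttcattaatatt
Sequences are from the GENCODE M21 transcripts of GRCm38.

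mt-Co1 and mt-Nd4 are copied only in part, and both had counts. Gm29216 (chr1:24615706-24616197, minus strand) matched bases 1063 to 1545 of mt-Co1, the last 31.3% of the gene, and Gm28439 (chr1:24611535-24612410, minus strand) matched bases 1 to 876 of mt-Nd4, its first 63.6%. The edges of these shared stretches are shown because they divide the bases outside the annotated copy (lower case) from those in the matched stretch (capitals). A read that crosses an edge or covers a differing base can still align uniquely. In mt-Co1 the capitals hold 1 base that differs in the copy, A1066T, counted from 1 at the first base of the gene. The windows lie at chrM:6350-6429 and chrM:11003-11082, plus strand.
mt-Co1: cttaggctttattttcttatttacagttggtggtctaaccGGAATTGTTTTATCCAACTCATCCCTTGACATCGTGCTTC
mt-Nd4: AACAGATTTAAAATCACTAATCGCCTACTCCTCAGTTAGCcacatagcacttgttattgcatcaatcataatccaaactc
That left 1062 bases of mt-Co1 and 502 of mt-Nd4 outside the annotated copies.

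mt-Atp8 stood apart from the other zeros only in the search of annotated copies. Its last 43 bases, 21.1% of the gene, lay in such a copy, and those are the bases it shares with mt-Atp6. It is shown whole (chrM:7766-7969, plus strand), with the overlap with mt-Atp6 in capitals.
mt-Atp8: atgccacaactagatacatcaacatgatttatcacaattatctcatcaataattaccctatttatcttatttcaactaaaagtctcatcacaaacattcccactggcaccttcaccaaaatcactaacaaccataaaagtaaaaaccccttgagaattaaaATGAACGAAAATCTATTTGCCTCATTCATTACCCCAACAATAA
Only annotated transcripts were searched, so a copy of the rest of mt-Atp8 outside an annotated gene was not tested. The copies of its neighbours mt-Co2 (chr1:24614885-24615565) and mt-Atp6 (chr1:24613974-24614651) lie in the same order on the minus strand. The rest of mt-Atp8 would fall in the stretch between them, which was not searched. Its zero is therefore not read as a lack of transcription.

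Among the nuclear genes, Cox4i1, the largest nuclear subunit of cytochrome c oxidase, was the 1 gene listed at 0 throughout. It lies at chr8:120668222-120674207 on the plus strand, wholly inside the body of Gm20388 (chr8:119910841-124345722), a gene of the same strand with 2163 counts. All 36 protein-coding genes inside that span on the same strand were at 0, against 2 of 35 on the opposite strand. Over the whole annotation, 440 of 455 protein-coding genes lying wholly inside same-strand gene bodies were at 0 (96.7%), against 39.8% of those inside opposite-strand bodies only and 33.0% of those with no overlap. This is the pattern that counting by strand over whole gene bodies, introns included, gives, though no source used here names the counted feature. The zero of Cox4i1 therefore says nothing of its transcription. Ndufb8 had 62.0% of its body inside Gm20538 of the same strand, so its 161 counts may be an underestimate. Ndufs3 shares 75.7% of its transcript with Gm12251 at 98.6% identity. Cox5b shares 390 of its 865 bases with Gm11273 at 99.2% identity and 50 with Abca12 at 98%. The levels of Ndufs3 and Cox5b are uncertain for that reason.

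Measured levels of the mitochondrial genes were compared per kilobase of sequence outside the annotated copies. mt-Co1, the catalytic subunit of cytochrome c oxidase, stood highest at 1750.4 ± 234 CPM per kb for mutants against 1999.3 ± 247 for controls (SD, n = 6 each). mt-Cytb, the core of complex III, followed at 522 ± 107 and 606 ± 200.1 CPM per kb. The complex I subunits were lower, with mt-Nd1 at 373 ± 97.4 and 411 ± 212, mt-Nd4 at 273 ± 112 and 349 ± 340.5, and mt-Nd6 at 258 ± 49.1 and 266 ± 51.1 CPM per kb. mt-Nd5 at 183 ± 51.2 and 199.9 ± 102 and mt-Nd2 at 114 ± 47.5 and 127 ± 81.9 CPM per kb came last. Below mt-Co1, neighbours in this order differed by less than the larger of their SDs in controls. mt-Nd6 is the only one of the 13 encoded on the opposite strand. The nuclear genes are not put on this scale, since counts that may cover introns leave the right length unknown.

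Among the 7 measured mitochondrial genes, 5 had the same lowest and the same highest library, and mt-Co1 and mt-Nd6 did not. In CPM, mt-Nd1 was at 337, 424, 272, 268, 330.1 and 508 in mutants 1 to 6 and at 410.03, 126, 329, 364, 380.1 and 753 in controls 1 to 6. mt-Nd2 was at 120.03, 153, 68.1, 78.3, 92.9 and 197 CPM in the mutants and at 123, 33.9, 87.8, 122, 137 and 288 CPM in the controls, in the same order. mt-Nd4 was at 115, 159.6, 101, 95.0, 110.04 and 242 CPM in the mutants and at 152, 43.8, 104, 117, 119 and 517 CPM in the controls. In all 3, control 2 was the lowest library and control 6 the highest, and the 6 mutants fell between them. mt-Nd5 was at 277, 325, 300.2, 250.4, 338 and 513 CPM in the mutants and at 348, 136, 303, 289, 419.98 and 691 CPM in the controls. mt-Cytb was at 617, 702, 424, 503, 581 and 753 CPM in the mutants and at 678, 382, 643, 716, 646 and 1093 CPM in the controls. These 2 genes gave the same pair of extremes, control 2 and control 6. mt-Co1 was at 1820.2, 2248, 1470.03, 1919, 1865 and 1833 CPM in the mutants and at 2040.1, 2164, 2151, 1799, 1999.8 and 2585 CPM in the controls. mt-Nd6 was at 97.2, 129.8, 177, 134, 139 and 128 CPM in the mutants and at 108, 142, 152, 103, 152 and 170.2 CPM in the controls. In mt-Co1 and mt-Nd6, control 2 was not low, at 1.128 and 1.063 times the median of the other 11 libraries, and for mt-Co1 it was the third highest.

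Control 2 was thus the lowest library for 5 of the 7 genes and control 6 the highest for 6 of 7. Against the median of the other 11 libraries, control 2 stood at 0.279 (mt-Nd2) to 0.592 (mt-Cytb) times for those 5 genes, and control 6 at 1.35 (mt-Co1) to 4.47 (mt-Nd4) times for its 6. The mitochondrial ribosomal RNAs, which remain after depletion of rRNA and so do not give the level in the tissue, showed the same 2 libraries at the ends. mt-Rnr1 was at 409.8 CPM in control 2 and at 4215 CPM in control 6, against 687 to 2175 CPM in the other 10, and mt-Rnr2 at 3384 and 10234 CPM against 4095 to 9904 CPM. The share of mt-Co1 in the counts of the 7 genes was therefore 71.5% in control 2 (3063 of 4286 counts, exact 95% interval 70.1 to 72.8%) and 42.4% in control 6 (5620 of 13254 counts, 41.6 to 43.2%). The other 10 libraries gave 43.9 to 59.1%, and the interval covers counting error only. Of the 22 mitochondrial transfer RNA genes, 7 had counts, 97 in all, too few to compare.

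**Figure D1:**
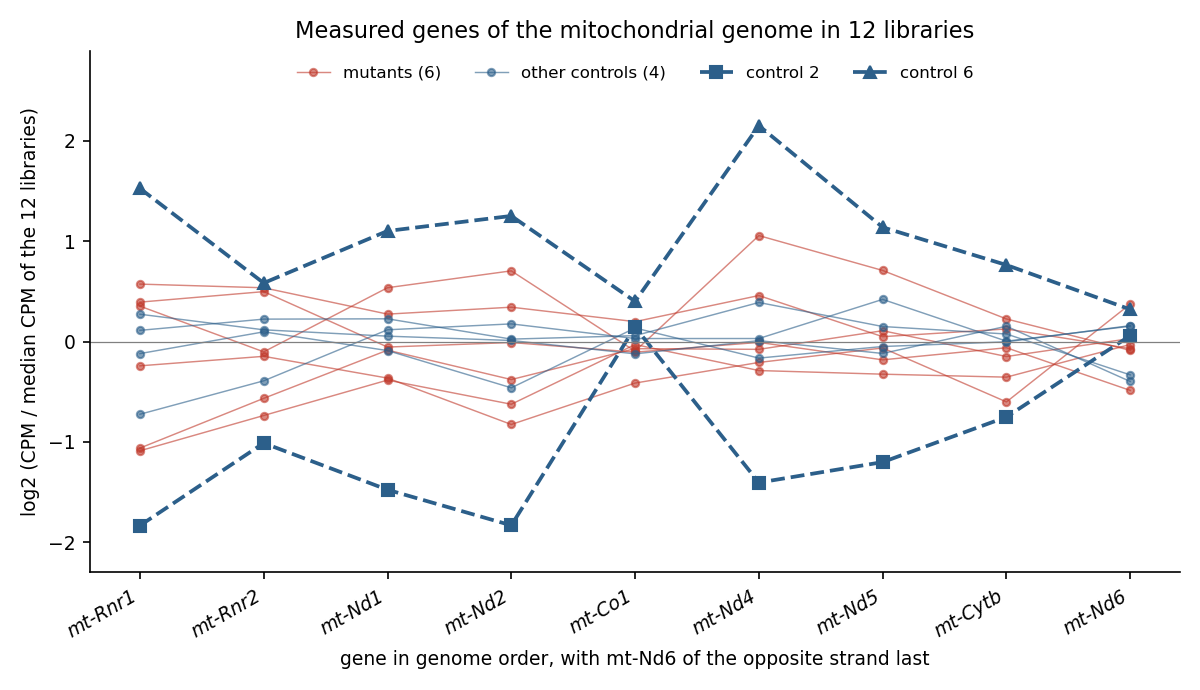
Level of the 7 measured mitochondrial protein-coding genes and both mitochondrial ribosomal RNAs in each of 12 libraries, as log2 of CPM over the gene's median across libraries, with 1 line per library. Control 2 (squares) and control 6 (triangles) lie at the lower and upper ends for most genes, and all lines draw together at mt-Co1 and mt-Nd6.

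Other measures also set control 2 apart, and control 6 less so. Control 2 had the lowest summed radial glia markers (179 CPM, against 274 to 512 CPM in the other 11 libraries). Sox2, 1 of the 5 radial glia markers, was listed at 0 in every library and adds nothing to this sum. Control 2 also had the lowest intermediate progenitor markers (35.3 CPM, against 90.4 to 182 CPM) and the highest interneuron markers (1205 CPM), with striatal markers at 3211 CPM. It also had the lowest sum over 79 ribosomal protein genes (1882 CPM). Mutant 6 had similar interneuron markers (1196 CPM) and higher striatal markers (3657 CPM). Its mt-Nd1 (508 CPM) and mt-Nd4 (242 CPM) were below those of control 6 alone. Control 6 had the highest share of alignments that were not unique among controls (19.6%), below mutants 1 and 2 (23.0 and 19.9%). Those 2 mutants had mitochondrial sums of 3384 and 4141 CPM, against 6097 CPM in control 6. The radial glia sum of control 6 (329.8 CPM) and its striatal sum (2123 CPM) were within the range of the rest. The part of these measures in the mitochondrial levels was not tested.

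Between genotypes, none of the 32 tested members was called higher or lower at an adjusted p under 0.05 (edgeR quasi-likelihood test with Benjamini-Hochberg adjustment over 10678 genes), where 0.215% of all genes tested were called (6 higher, 17 lower). DESeq2 called 0 members as well, and 3 members had an unadjusted p under 0.05 in each tool, against 937 of 10678 genes in edgeR. For no member did the 6 mutants all lie above or all below the 6 controls, against 0.337% of all genes with mutants all above and 0.927% with mutants all below. All p-values measure the spread between these embryos.

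All 7 measured mitochondrial genes had negative genotype log2 fold changes, and the nuclear genes were divided. mt-Nd4 stood at -0.99 (SE 0.420, adjusted p = 0.551), mt-Nd2 at -0.69 (SE 0.455, adjusted p = 0.756) and mt-Nd5 at -0.59 (SE 0.253, adjusted p = 0.538, all edgeR). mt-Nd1 was at -0.56, mt-Cytb at -0.46, mt-Co1 at -0.23 and mt-Nd6 at -0.13, with adjusted p of 0.598 to 0.880. Of 6 mutants, 5 were below the control mean for mt-Nd4, mt-Nd5 and mt-Co1, and 4 for the other 4 genes. That mean includes control 6, the highest library for 6 of the 7. Medians of mutants and controls were 113 and 118 CPM for mt-Nd4 and 312 and 326 CPM for mt-Nd5. For mt-Co1 they were 1849 and 2095 CPM. The median of the 7 was -0.56, against 0.01 for the 25 tested nuclear members (14 positive and 11 negative) and -0.00088 over all genes tested. These fitted values are adjusted for litter and sex. Plain means were 357 ± 93.3 (mutants) and 394 ± 203 CPM (controls) for mt-Nd1, and 118 ± 49.4 and 132 ± 85.0 CPM for mt-Nd2 (SD, n = 6 each). Since 5 of the 7 genes shared their lowest and highest library, the 7 signs are not separate results.

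The size of the mitochondrial values rested on control 6. Without it, mt-Nd4 was at -0.20, mt-Nd2 at -0.21, mt-Nd1 at -0.25, mt-Cytb at -0.16, mt-Nd5 at -0.42, mt-Nd6 at -0.04 and mt-Co1 at -0.0099, and the median was -0.20. Leaving out both control 2 and control 6, an alternative chosen after seeing the data, gave the same median of -0.20. Without a sex term the median was -0.26 and mt-Nd4 stood at -0.52, and the sign stayed negative in all 7. Within litter 2, which holds control 6, the values ran from -0.17 (mt-Nd6) to -1.40 (mt-Nd4). Within litter 1 they ran from -0.22 (mt-Nd5) to 0.16 (mt-Nd2), and there the genotype value rests on control 1 alone as the only female control. Scaling by nuclear genes only left the median at -0.56.

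**Figure D2:**
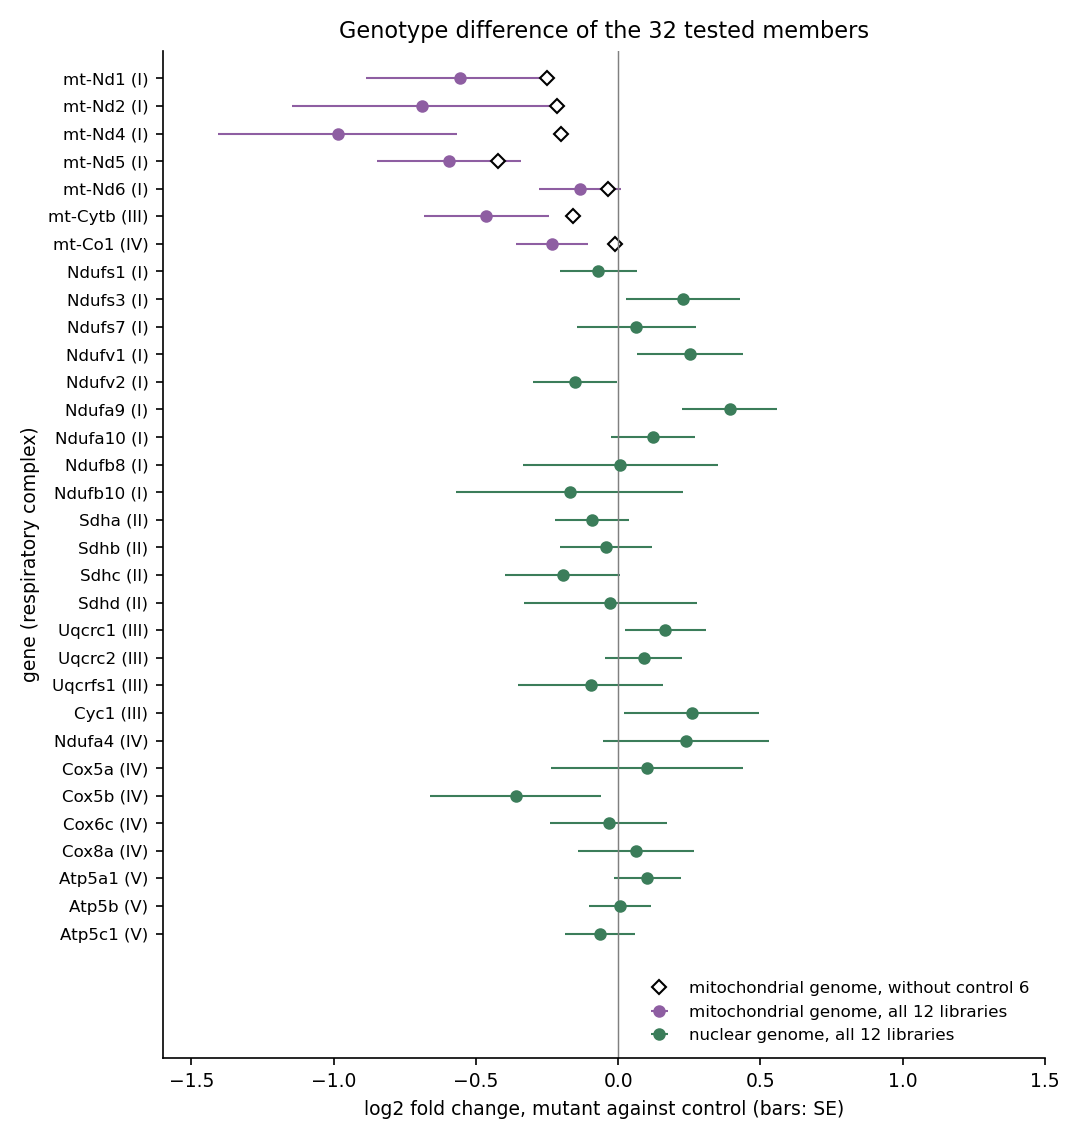
Genotype log2 fold change with its SE for the 32 tested members, ordered by genome and respiratory complex (in brackets), from the model over all 12 libraries. Filled points of the 7 mitochondrial genes all lie below 0, and open diamonds, fitted without control 6, lie nearer to 0 for each of the 7 (median -0.20 against -0.56).

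In complex I, whose nuclear subunits include the arm that oxidises NADH, 6 of 9 tested nuclear members were positive and 3 negative, with a median of 0.06 (log2). Ndufa9, an accessory subunit at the junction of the matrix and membrane arms, had the largest positive value of all nuclear members. In CPM it was at 33.4, 43.6, 24.4, 37.2, 25.7 and 27.9 in mutants 1 to 6 and at 25.9, 27.6, 33.1, 34.0, 24.3 and 24.4 in controls 1 to 6. The groups overlapped, with means of 32.04 ± 7.48 CPM for mutants and 28.2 ± 4.32 CPM for controls (SD, 6 libraries per genotype). In edgeR the fitted genotype value was 0.39 on the log2 scale (SE 0.167, adjusted p = 0.489), and it stayed positive in every alternative run, at 0.16 to 0.61. Ndufv1, which binds NADH and flavin, was at 0.25 (SE 0.186), and Ndufs3, a core subunit of the quinone-binding part, at 0.23 (SE 0.201). The iron-sulfur subunits Ndufs1, at 52.3 ± 3.65 (mutants) and 53.9 ± 6.50 CPM (controls), and Ndufv2, at 54.9 ± 8.18 and 58.2 ± 8.39 CPM, differed by less than the SD of either group. The accessory subunit Ndufa10 was at 0.12, the core subunit Ndufs7 at 0.06, and the membrane-arm subunits Ndufb8 and Ndufb10 at 0.01 and -0.17. Ndufs8, another core iron-sulfur subunit, had 134 counts in all, 0 to 26 per library, and fell below the filter.

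Complex II, the succinate dehydrogenase that also serves the citric acid cycle, is nuclear only. All 4 of its genes had negative values between -0.19 (Sdhc) and -0.03 (Sdhd) on the log2 scale, with adjusted p of 0.867 or above (edgeR). The flavoprotein Sdha was at 48.1 ± 6.19 (mutants) and 52.1 ± 3.78 CPM (controls), and the iron-sulfur protein Sdhb at 33.3 ± 4.95 and 31.98 ± 4.24 CPM. The membrane anchors Sdhc and Sdhd were at 29.3 ± 6.14 and 11.9 ± 4.26 CPM in mutants against 30.8 ± 6.90 and 10.1 ± 2.95 CPM in controls. For Sdhb and Sdhd the plain means lay the other way from the fitted values, which are adjusted for litter and sex, and both turned positive without the sex term (0.04 and 0.13).

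In complex III, cytochrome c1 (Cyc1) was at 0.26 (SE 0.236) and the core proteins Uqcrc1 and Uqcrc2 at 0.17 and 0.09, while the Rieske iron-sulfur protein Uqcrfs1 was at -0.10 (log2 fold changes). Uqcrc2 was among the steadiest members, at 35.9 to 46.5 CPM over the 12 libraries. In complex IV, 3 of 5 tested nuclear members were positive. Ndufa4, first assigned to complex I and now placed in complex IV, was at 0.24, Cox5a at 0.10 and Cox8a at 0.06, and Cox6c was at -0.03, all structural subunits. Cox5b, a zinc-binding subunit, had the largest negative value of the nuclear members, -0.36 (SE 0.302, adjusted p = 0.823, edgeR). It was at 12.2, 11.7, 8.58, 10.3, 7.71 and 18.6 CPM in mutants 1 to 6 and at 15.0, 5.65, 6.78, 7.09, 8.10 and 16.6 CPM in controls 1 to 6. Its mutant mean of 11.5 ± 3.88 CPM was above its control mean of 9.87 ± 4.68 CPM, opposite in sign to the fitted value. Without a sex term the value was 0.01, and without a litter term it was -0.30. In complex V the subunits Atp5a1 (alpha), Atp5b (beta) and Atp5c1 (gamma) were at 0.10, 0.01 and -0.06. They were the deepest-counted nuclear members with Cox8a, and Atp5b held 203 to 1007 counts per library.

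Replicate spread differed between the genomes. The biological coefficient of variation fitted by edgeR, the spread between libraries beyond counting error, had a median of 0.223 (range 0.144 to 0.352) over the 7 mitochondrial genes and 0.116 (0.0636 to 0.337) over the 25 tested nuclear genes, against 0.126 over all genes tested. The highest library exceeded the lowest by 11.8 times for mt-Nd4 and 8.49 times for mt-Nd2, though both had at least 48 counts in each library. In mt-Co1 and mt-Nd6 it did so by 1.76 and 1.82 times.

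Sums over each genome held only the genes with counts, 7 of the 13 mitochondrial and 26 of the 27 nuclear members. The mitochondrial genes took 3536 ± 531 CPM of the mutants and 4019 ± 1065 CPM of the controls. The nuclear genes took 1187 ± 130 CPM and 1119.8 ± 76.2 CPM (SD, n = 6 each). The log2 ratio of the means was -0.19 for the mitochondrial and 0.08 for the nuclear sum. Without control 6 they were -0.03 and 0.12, and the difference between groups was smaller than the SD within them for the mitochondrial sum in both cases. The ratio of mitochondrial to nuclear counts was 2.99 ± 0.41 in mutants and 3.55 ± 0.67 in controls, with mutants at 2.52 to 3.60 and controls at 2.81 to 4.80, so the groups overlapped.

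The nuclear sum set 2 libraries of litter 1 apart. The mutants of litter 1 were at 1345 and 1353 CPM, above every other library, and the controls of litter 1 were at 1074 to 1113 CPM. In litter 2 the groups overlapped, with mutants at 1053 to 1161 CPM and controls at 1107 and 1272 CPM, and control 6 alone lay above all 4 mutants. The same 4 libraries (mutants 1, 2 and 6 and control 6) were highest for the nuclear sum and for the sum of 79 ribosomal protein genes, where mutants 1 and 2 reached 3751 and 3488 CPM and the other 10 libraries 1882 to 3308 CPM. Mutants 1 and 2 also had 643197 and 924066 gene counts, among the lowest 3 of the 12 totals, and the highest shares of alignments that were not unique (23.0 and 19.9%). The same pair had the lowest summed markers of cortical excitatory neurons (2013 and 2002 CPM, against 2056 to 3823 CPM in the other 10 libraries) and of Cajal-Retzius cells (309.95 and 279.9 CPM, against 326 to 818 CPM). Their radial glia markers were the highest (435 and 512 CPM, against 179 to 385 CPM), as were their endothelial markers (83.6 and 83.0 CPM, against 52.7 to 81.6 CPM). The part of depth, of these shares and of these markers in the nuclear sum was not tested. Both mutants are female, as is control 1, which had the lowest nuclear sum of litter 1 at 1074 CPM, and the male controls 2 to 4 were at 1076 to 1113 CPM.

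**Figure D3:**
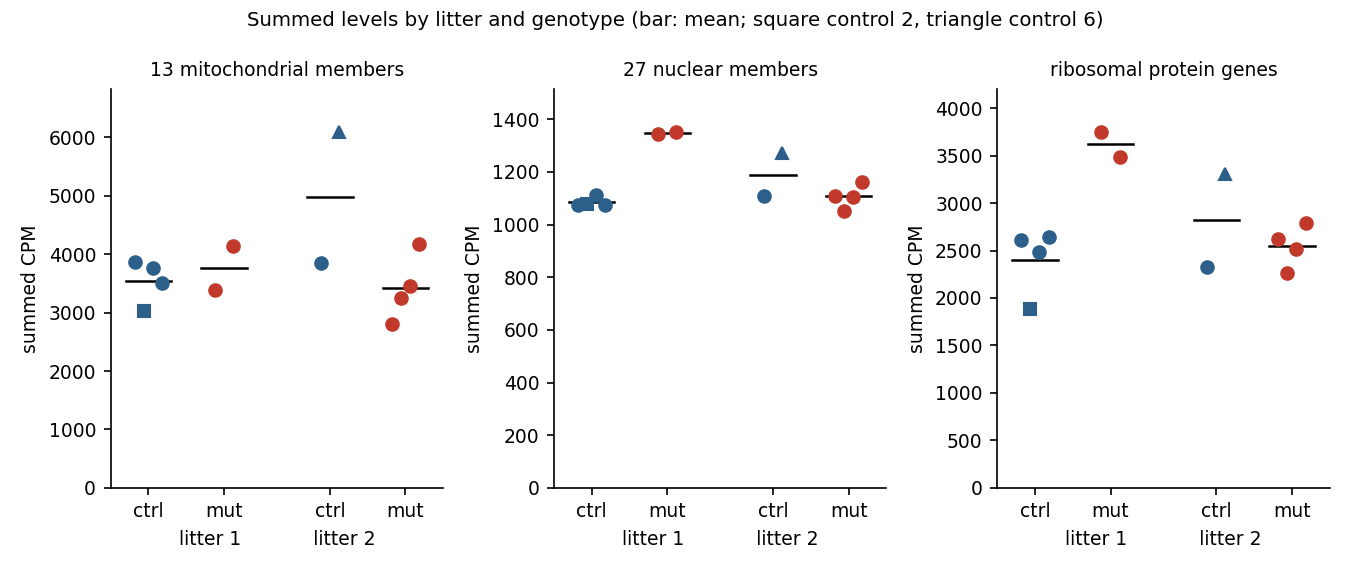
Summed CPM of the 13 mitochondrial members (7 with counts), the 27 nuclear members (26 with counts) and 79 ribosomal protein genes in each library. Libraries are set out by litter and genotype, with bars at group means. Mutants 1 and 2 of litter 1 stand above their litter's controls in the nuclear and ribosomal protein sums, and control 6 of litter 2 (triangle) is highest in the mitochondrial sum at 6097 CPM.

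Gene by gene, both litter 1 mutants lay above all 4 litter 1 controls for 8 nuclear members (Ndufv1, Ndufa10, Ndufb10, Cyc1, Cox6c, Cox8a, Atp5a1 and Atp5b) and below them for 0. Over all genes tested 14.0% had the litter 1 mutants above and 12.8% below, and the 8 were among 25 tested nuclear members. No mitochondrial gene was in either set. In litter 2, 3 members had the 4 mutants below both controls (Atp5b, Sdhb and mt-Co1) and 0 had them above, where 8.83 and 7.44% of all genes did. Atp5b was at 331 and 344 CPM in mutants 1 and 2 and at 252, 256, 270.1 and 258 CPM in controls 1 to 4, then at 279, 261, 271 and 282 CPM in mutants 3 to 6 and at 285 and 339 CPM in controls 5 and 6. Cox8a was at 106 and 131 CPM in mutants 1 and 2 and at 66.9, 82.0, 84.8 and 68.3 CPM in controls 1 to 4, then at 68.9, 87.3, 77.5 and 86.4 CPM in mutants 3 to 6 and at 86.2 and 113 CPM in controls 5 and 6. Atp5a1 was at 201 and 168 CPM in the litter 1 mutants against 125 to 148 CPM in their controls, and at 128 to 154 CPM in the litter 2 mutants against 145 and 153 CPM. In these 3 genes the litter 1 mutants were the high libraries of their litter and the litter 2 mutants were not. The rest of the 8 were divided in litter 2. Mutant means stayed above control means for Ndufv1 (23.4 and 21.6 CPM), Cyc1 (15.4 and 11.3 CPM) and, barely, Ndufa10 (41.7 and 41.4 CPM). They lay below for Ndufb10 (9.83 and 13.9 CPM) and Cox6c (22.0 and 24.6 CPM).

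A term for litter by genotype tested that difference directly and called none of the 32 members, where 0% of all genes were called. Unadjusted p was under 0.05 for 5 members, all nuclear, against 776 of 10678 genes. Cox8a had an interaction of -1.03 (SE 0.238), Atp5b of -0.54 (SE 0.154) and Atp5a1 of -0.52 (SE 0.178) on the log2 scale, with adjusted p of 0.435 to 0.529 (edgeR). Ndufb10 was at -1.65 and Sdhc at 0.82, both with adjusted p = 0.621. The sign was negative for 26 of the 32 members, against 5417 of 10678 genes, and the median over all genes was -0.01.

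**Figure D4:**
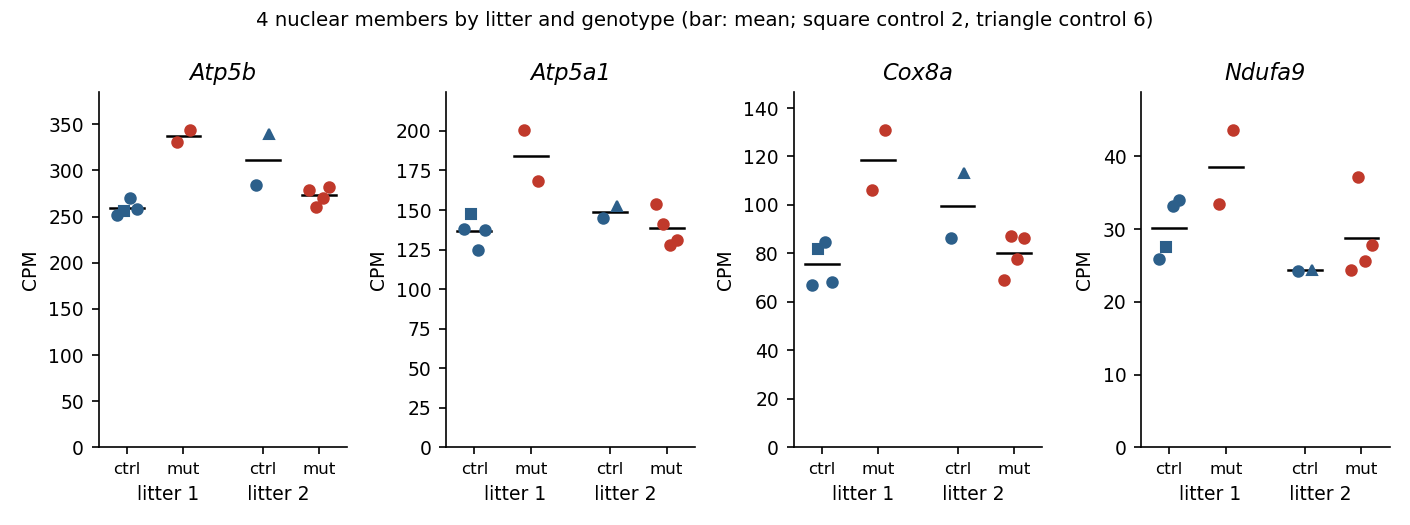
CPM of Atp5b, Atp5a1, Cox8a and Ndufa9 in each library, by litter and genotype, with bars at group means. For Atp5b, Atp5a1 and Cox8a the litter 1 mutants lie above all their controls, while in litter 2 the mutant mean is below the control mean.

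In the litter term, fitted beside sex and genotype, none of the 32 members was called, where 1.31% of all genes were (74 higher in litter 2, 66 lower). DESeq2 also called 0. Unadjusted p was under 0.05 for 5 members in edgeR and 4 in DESeq2, against 1641 of 10678 genes in edgeR. mt-Nd6 was at 122 ± 22.4 CPM in litter 1 and 149.9 ± 19.9 CPM in litter 2 (SD, 6 libraries per litter), which the model put at 0.35 on the log2 scale (SE 0.127, adjusted p = 0.184, edgeR). mt-Nd5 was at 0.61 (SE 0.223, adjusted p = 0.229). Cyc1, Ndufa9 and Ndufv1 stood at -0.56, -0.38 and -0.37, with adjusted p of 0.192 to 0.274. Without the filter on low counts, mt-Nd6 was called as higher in litter 2, the only member called in any alternative. The litter values were positive for 6 of 7 mitochondrial and 8 of 25 nuclear members, against 5242 of 10678 genes.

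Between sexes none of the members was called, where 0.00937% of all genes were, which is 1 gene. Unadjusted p was under 0.05 for 5 of 32 members, against 742 of 10678 genes. Log2 fold changes of males against females were negative for 26 of 32 members, with a median of -0.17. Over all genes tested 5425 of 10678 were negative, with a median of -0.0042. mt-Nd4 was lowest at -1.29 (SE 0.434, adjusted p = 0.706, edgeR). The controls hold 4 of the 5 males, control 2 among them, and the mutants 5 of the 7 females, so sex and genotype share much of their contrast.

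The rest of the respiratory chain and its supply lines were read from lists of other genes, and no gene of them was called between genotypes. Among other subunits, 22 of complex I had a median log2 fold change of -0.01 (11 positive, 11 negative), 4 of complex III and cytochrome c -0.13, 6 of complex IV 0.26 (5 positive, 1 negative) and 11 of complex V -0.05. The median was 0.01 over 31 assembly factors, 0.03 over 62 mitochondrial ribosomal proteins and -0.02 over 27 genes that copy, transcribe and process mitochondrial DNA and RNA. It was 0.06 over 16 glycolytic genes (13 positive, 3 negative), -0.02 over 16 genes of pyruvate dehydrogenase and the citric acid cycle, and -0.03 over 9 regulators of mitochondrial biogenesis. Both mitochondrial ribosomal RNAs were negative, mt-Rnr1 at -0.79 (SE 0.495, adjusted p = 0.737, edgeR) and mt-Rnr2 at -0.31 (SE 0.240, adjusted p = 0.807). Between litters, 1 of the 206 tested genes of these lists was called (0.485%), against 1.31% of all genes. It was Hcfc1, a coactivator that works with nuclear respiratory factors, which was higher in litter 2 by 0.37 (SE 0.0875, adjusted p = 0.0420, edgeR).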

How the data were processed

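Total RNA of 12 embryonic cortices was depleted of ribosomal RNA and made into ClickSeq libraries, in which reverse transcription is ended at random and adaptors with molecular tags are joined by click chemistry, per the labels' protocols. Per the submitters' processing notes, the build was mm10 and the tools were STAR 2.5.2a, HTSeq 0.6.1p1, UMI-tools 0.5.3, cutadapt 1.13, edgeR 3.20.9 and bcl2fastq 2.17. The annotation, the strand setting, the counted feature and the order of steps are not stated there. Each deposited file lists a raw count for every Ensembl gene, which the authors had not normalized, then 5 closing entries that were left out. Symbols came from GENCODE M21: 47734 identifiers matched with their version, 3985 without it, and 193 had no match.

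All genes passing filterByExpr (minimum count 10; 10678 genes) were scaled by TMM. A model of genotype, sex and litter with 8 residual degrees of freedom was then fitted by glmQLFit, with robust estimation, and tested by glmQLFTest (edgeR 4.0.16 under R 4.3.3). P-values were adjusted by Benjamini-Hochberg over all 10678 and called under 0.05. An SE is the log2 fold change over the square root of F. A fit with a litter by genotype term gave the interaction. The model was tested on simulated data for the mutant and control comparison (10521 genes), where it called 80.6% of genes changed by a log2 fold of 1, 97.9% of those changed by 2 and 0.116% of unchanged genes. Only genes above a low limit of CPM were changed, and no litter or sex effect was simulated. These shares do not hold for the mitochondrial members, whose median coefficient of variation was 0.223 against 0.126 over all genes. Copies of members were sought with BLAST 2.17.0 among annotated transcripts, at 98% identity or more over at least 40 bases. Alternatives were DESeq2 1.42.0, DESeq2 size factors, scaling without mitochondrial genes, no filter, no sex or litter term, thinning to 643197 counts, single litters, females alone and libraries left out.

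The members, gene lists and tests were chosen with earlier results of these data known. Named were all 40 members, called genes of each list, and per-library values of the mitochondrial members and of the nuclear members with the largest positive and negative fold changes; Atp5b, Cox8a and Atp5a1 were added for their values. Replicate numbers follow the order of deposition and only name embryos.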

Additional observations from a re-analysis of the deposited data

Results flagged for a closer look

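In 7 of the 72 sets of 6 libraries examined (each measured member and each summed level, in mutants and in controls), the highest library stood so far from the others that its gap to the next exceeded 0.625 of the whole range, the 95% limit of Dixon's test for 6 values. Chance alone passes that limit in about 1 of 20 such sets, and members of 1 library share its scaling. Control 6 gave 4 of the 7. It was at 517 CPM for mt-Nd4, against 43.8 to 152 CPM in the other 5 controls, and at 20.2 CPM for Ndufb10, against 4.18 to 7.84 CPM. Its summed mitochondrial members reached 6097 CPM, against 3028 to 3860 CPM, and its summed nuclear members 1272 CPM, against 1074 to 1113 CPM. Mutant 6 gave 2, at 513 CPM for mt-Nd5, against 250.4 to 338 CPM in the other 5 mutants, and at 13.01 CPM for Ndufb8, against 5.14 to 7.71 CPM. Mutant 2 gave 1, at 42.6 CPM for Sdhb, against 28.8 to 33.8 CPM.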

How the results depend on the processing

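No member was called between genotypes in any of the 24 alternatives, and between litters 1 member (mt-Nd6) was called without the low-count filter and 0 in the other 20. Members' genotype log2 fold changes changed sign for 25 of 384 values with 1 library left out and for 47 of 376 otherwise. None of these passed the threshold, and the cause was not tested. Without the sex term Atp5c1 was at 0.0042, Cox5b 0.0113, Cox6c 0.12, Ndufb8 -0.0471, Sdhb 0.0404, Sdhd 0.13 and Uqcrfs1 0.0425. Thinned to equal depth, Atp5b was at -0.0306, Atp5c1 0.0715, Cox6c 0.0551, Ndufa10 -0.0553 and Ndufv2 0.20. Without the filter Atp5b was at -0.0279 and Ndufb8 at -0.0158, and in DESeq2 Sdhd at 0.0032. In litter 1 alone Atp5c1 was at 0.23, Cox6c 0.57, Ndufb10 1.49, Ndufb8 -0.19, Ndufv2 0.10, Sdhb 0.19, Sdhd 0.66, Uqcrfs1 0.13, mt-Nd2 0.16 and mt-Nd6 0.0742. In litter 2 alone Atp5a1 was at -0.0978, Atp5b -0.22, Cox5a -0.12, Cox8a -0.37, Ndufa10 -0.0304 and Sdhc 0.0227. In females Atp5c1 was at 0.0069, Cox6c 0.13, Ndufb8 -0.0122, Ndufs7 -0.0187 and Sdhb 0.0051. Without mutants 1 and 4 Atp5b was at -0.0176, Cox6c 0.11, Cox8a -0.0216 and Ndufs7 -0.079. Without controls 2 and 6, chosen after seeing the data, Atp5c1 was at 0.0277, Cox6c 0.22, Ndufb10 1.26, Ndufb8 -0.028, Sdhd 0.56, Uqcrc2 -0.0046 and Uqcrfs1 0.12. With 1 library left out, Atp5b ran from -0.10 to 0.20, Atp5c1 from -0.17 to 0.029, Cox5a from -0.15 to 0.40, Cox6c from -0.32 to 0.21, Cox8a from -0.13 to 0.52, Ndufb10 from -0.49 to 1.26 and Ndufb8 from -0.13 to 0.0900. Ndufs7 ran from -0.061 to 0.19, Sdhb from -0.16 to 0.021, Sdhd from -0.23 to 0.57, Uqcrc2 from -0.0039 to 0.13 and Uqcrfs1 from -0.26 to 0.13.

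Calls between genotypes over all genes moved from 23 to 0 without mutants 1 and 4, 77 without the sex term, 95 in DESeq2 and 261 without the filter, and ran from 6 (without mutant 2) to 55 (without control 4) with 1 library left out. Those between litters moved from 140 to 593 without the filter, 263 in DESeq2 and 27 without control 5. No paired analysis was possible because replicate numbers follow the order of deposition and only name embryos; litter is a term of the model. Of the 32 tested members, 13 had under 20 counts in their poorest library, down to 4 for Ndufb8 and 5 for Cox5a and Cyc1, and depth limits these most.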

Other observations

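Promoters of the nuclear members were read from RefSeq (GRCm38.p6, 250 bases before to 50 after each start), where 20 of the 27 genes had an entry. The letters GCATGCGC, the core of the site of the nuclear respiratory factor NRF1, stood on either strand in the promoters of Sdhb and Uqcrc1, 2 of the 20 members (10%), against 3.05% of all 27025 genes in the table. The letters CCGGAAGT, the core of the site of ETS factors such as GABPA, stood in those of Cox8a and Ndufs3, also 2 of 20, against 4.31% of all genes. The motifs do not overlap each other. A match is a description of letters and does not show a site, and no match says only that these letters are not in the window.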
